A study of Mus musculus with 4 samples.

Results

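The respiratory chain of mitochondria is built mostly from proteins that the nucleus encodes. The genes described here were the protein-coding autosomal genes of the GENCODE mouse annotation whose symbols name subunits of its 5 complexes (Ndufa, Ndufb, Ndufc, Ndufs and Ndufv followed by a digit, Sdha to Sdhd, Uqcr, Cox4 to Cox8, and Atp5). This rule gave 82 gene records out of 20807, with 35 in complex I, 4 in complex II, 8 in complex III, 17 in complex IV and 18 in complex V. They carry 81 symbols, because Atp5o has 2 records, one of which runs over 242585 bp. A further 3 genes that match the symbols lie on the X chromosome and were left out by the rule (Ndufa1, Ndufb11 and Cox7b). Complexes were assigned by symbol alone, so Ndufa4, whose protein is known as a subunit of complex IV, was counted with complex I.

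CTCF, a DNA-binding protein with zinc fingers that marks the borders of chromatin loops, was mapped by ChIP-seq in frozen left cerebral cortex from female B6CASTF1/J mice, 2 months old, a first-generation hybrid strain. All 4 libraries came from this 1 condition and 1 antibody, as 2 technical replicates each of pool I and pool J, and each pool combined 4 biosamples. The libraries of a pool were merged before peaks were called, so each pool gave 1 list, no value per library exists in the lists, and the read depth is unknown. In bulk tissue, binding in fewer cells and weaker binding per cell cannot be told apart, and the lists do not separate the parental alleles. CTCF binding is not expression, so the tissue label was not tested against marker genes. The lists hold 44672 peaks found reproducibly between the pools (the conservative list), 50827 from the pooled reads (the optimal list), 82131 from pool I and 52658 from pool J. Each was thresholded by the submitters at an irreproducible discovery rate (IDR) of 0.05. Signal values have no stated unit, so each peak is given by its percentile, the percentage of peaks of the same list with a lower signal value.

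Complex I passes electrons from NADH to ubiquinone, complex II does so from succinate, complex III hands them to cytochrome c, complex IV passes them to oxygen, and complex V makes ATP from the proton gradient. Neurons depend heavily on this chain. Promoters of the nuclear subunits are known for sites of NRF1, of the ETS factor GABP and of YY1, factors that couple the subunits to mitochondrial biogenesis.

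In the conservative list, promoter summits with a recognizable CTCF motif lay at genes of complexes I and V. Complex II had no promoter summit in that list, and only 1 gene of complex IV had one. A 20-base CTCF matrix was learned from the strongest peaks, and the threshold for its log-odds score was passed by 1% of windows 1000 bp away from summits. Within 50 bp of the 24 distinct conservative peaks at the promoters of respiratory chain genes it matched 9 (37.5%), against 36.0% of all promoter peaks. In the other lists it also matched under weak promoter summits of Sdhd (complex II, both pools), Uqcr11 (complex III, optimal list and pool I) and Cox5a (complex IV, pool J). Of the 9, 8 are shown because they are the letters under the peaks described further on. Each is read 5′ to 3′ on the strand of the match from GRCm38 (mm10), with the 20 matched bases in capitals and 5 bases of flank. In order they lie at chr17:24724488-24724517 (minus strand), chr15:82354422-82354451 (plus), chr17:66101878-66101907 (minus), chr19:4012917-4012946 (minus), chr7:3617033-3617062 (plus), chr5:108434455-108434484 (minus), chr3:105960887-105960916 (minus) and chr10:80143332-80143361 (plus).
Ndufb10: gctggGGACCACAAGGGGGTGCTCGagagg
Ndufa6: ctgagGAACCACCAGGAGGCGCAGCgtcga
Ndufv2: gtccaAGTCCACTAGGTGGCAGCCCtttaa
Ndufv1: cttggGATCCAGCAGAGGGCGACACgtgag
Ndufa3: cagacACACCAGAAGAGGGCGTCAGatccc
Atp5k: tcctcCAGTCGCTAGGGGGCAGCGCtttca
Atp5f1: catggAGGCCAAAAGATGGCACTGGcttcc
Atp5d: cagacAAACCAGAAGAGGGCATCAGttctc

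The Ndufb10 match had 15 of 20 bases in common with the most frequent letters of the matrix. The Ndufa3 and Atp5d matches shared 18 of 20 bases with each other. With the matrix letters, Ndufa3 had 12 in common and Atp5d 11. Both lie in sequence that the reference assembly marks as repetitive, as does the Atp5f1 match, and all 20 bases of each were so marked. In all, 3 of the 9 matches (33.3%) lay in marked repeats, beside 13.6% of the 1670 matches at the promoters of all protein-coding genes. Of the 8 matches shown, all except that of Ndufa6 ran on the same strand as the gene. The strand was not counted over all promoter matches, so no share of all genes stands beside this.

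Several of the strongest promoter peaks had no match at that threshold. The best 20-base window within 50 bp of the summit is shown for 3 of them, in lower case because it scored below the threshold of 12.3. They lie at chr12:111967073-111967102 (plus strand), chr8:83566656-83566685 (plus) and chr9:108936608-108936637 (plus).
Atp5mpl: ccacagcgcccccagtggtcgcccgggtgt
Ndufb7: cctccacaccgccagggggtgtcagcgagc
Uqcrc1: cttgctgcccaacagggggcgactgagcac

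The scores of these windows were 4.33 at Atp5mpl, 9.58 at Ndufb7 and 11.8 at Uqcrc1. The last was close to the threshold, and the first was far below it.

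Of the 82 genes, 22 had a conservative CTCF summit within 1000 bp of an annotated transcription start site (TSS). This is 26.8% of them (exact binomial 95% interval 17.6 to 37.8%, covering counting of genes only), against 21.4% of all autosomal protein-coding genes. The interval includes the share of all genes. CpG-rich promoters were more frequent among the respiratory chain genes, 60 of 82 (73.2%) against 47.4% of all genes. This depended on the cut-off: with a stricter one (observed over expected CpG of at least 0.75 and at least 55% GC) the shares were 28.0% and 26.9%. Within the wider class, which is used below, 17 of 60 (28.3%) had a summit, against 31.1% of all genes with CpG-rich promoters. Among the genes without a CpG-rich promoter, 5 of 22 (22.7%) had one, against 12.7% of all such genes. The optimal list gave 25 genes (30.5%, interval 20.8 to 41.6%), against 24.5% of all genes. Pool I gave 40 (48.8%, 37.6 to 60.1%), against 38.6%, and pool J gave 28 (34.1%), against 26.0%. The share was above that of all genes in each of the 4 lists, which are not independent, and each interval included the share of all genes. Among CpG-rich promoters it was below that of all genes in each list, at 31.7% against 35.8% in the optimal list, 53.3% against 57.6% in pool I and 36.7% against 38.2% in pool J.

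By complex, the counts were 10 of 35 in complex I, 0 of 4 in complex II, 4 of 8 in complex III, 1 of 17 in complex IV and 7 of 18 in complex V. Complex IV had the lowest share of the complexes with more than 4 genes, 5.88% (0.149 to 28.7%), and complex III the highest, with an interval of 15.7 to 84.3%. Both intervals include the 21.4% of all genes. The assembly factors of the chain, proteins that build the complexes without staying in them, had a summit at 20 of 47 promoters (42.6%, interval 28.3 to 57.8%). That interval lies above the share of all genes but includes the 31.1% of all genes with CpG-rich promoters. The assembly factors were not split by CpG class.

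**Figure D1:**
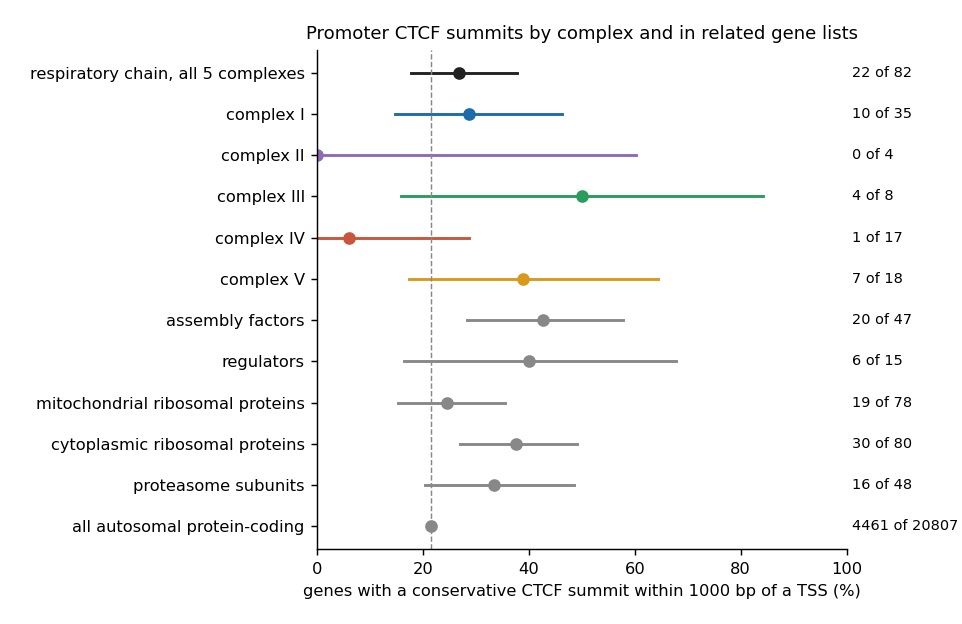
Percentage of genes with a conservative CTCF summit within 1000 bp of a TSS (x axis, points), with exact binomial 95% intervals (lines) and counts at the right. The dashed line marks all autosomal protein-coding genes, 21.4%. The interval of each of the 5 complexes crosses it. That of the assembly factors starts at 28.3%, below the 31.1% of all genes with CpG-rich promoters, which is not drawn.

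In complex I the strongest promoter peak of the conservative list was that of Ndufb7, an accessory subunit of the membrane arm. It ranked 789 of 44672 in the conservative list, at percentile 98.2, and stood at 98.5 in the optimal list, 98.0 in pool I, and ranked 522 of 52658 in pool J. Its summit fell on the first base of the annotated transcript (chr8:83566443-83566877), in annotated UTR.
Ndufb10, another accessory subunit of the membrane arm, stood at percentile 96.4 in the conservative list, 96.9 in the optimal list, 97.3 in pool I and 96.4 in pool J, with a summit 24 bp upstream of the TSS (chr17:24724317-24724696). Ndufa6, an accessory subunit that holds the mitochondrial acyl carrier protein, stood at 95.7, 96.3, 97.6 and 95.1 in the same order of lists, 113 bp upstream (chr15:82354231-82354646). These 3 genes stood above percentile 95 in every list.

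The 3 genes named Ndufv, which encode part of the NADH-binding tip of complex I, came next. Ndufv2, an iron-sulfur subunit, stood at percentile 85.5 in the conservative list, with 91.0 in pool I and 87.4 in pool J, 333 bp upstream. Ndufv1, which binds NADH and flavin, stood at 81.2, with 91.1 in pool I and 80.8 in pool J, 128 bp upstream. Ndufv3, an accessory subunit of the same module, was lower in the list at 31.6, with 64.2 in pool I and 37.4 in pool J, in an intron 602 bp downstream. All 3 of these genes thus had a promoter summit in both pools. Ndufs1, a core subunit of the same module, had none in the conservative list, the optimal list or pool J, and Ndufa2, Ndufs4 and Ndufs6, accessory subunits of complex I, had none in the 4 lists.

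The remaining accessory subunits of complex I with a promoter summit were Ndufa13 (percentile 71.4), Ndufa3 (60.2) and Ndufa12 (40.4). The Ndufa13 summit lay 980 bp downstream of its TSS, in a coding exon of the annotation and also within 1000 bp of a TSS of the kinase gene Tssk6. The Ndufa3 summit, 335 bp upstream, was also within 1000 bp of Oscar. Of the 10 complex I genes with a conservative promoter summit, 6 had the motif at the strongest one, against 36.2% of all genes with such a summit. The counts were 0 of 4 in complex III, 0 of 1 in complex IV and 2 of 7 in complex V. Complex II had no conservative promoter summit and so no share. The 6 include Ndufb10, whose peak was among those the matrix was trained on. In pool I the motif was at the strongest summit in 7 of 17 genes of complex I and 1 of 2 of complex II. The counts there were 1 of 7 in complex III, 0 of 4 in complex IV and 4 of 10 in complex V, against 1924 of 8027 of all genes. Complexes I and V had 6 of 10 and 3 of 8 in the optimal list, and 6 of 11 and 4 of 8 in pool J. Their shares were thus closer in each pool than in the conservative list.

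Ndufc1, a small accessory subunit, had no promoter summit in the conservative or the optimal list although its peak was near the top of both pools. It ranked 56 in pool I, at percentile 99.9, and 258 in pool J, at percentile 99.5, with summits 47 bp upstream in pool I and 57 bp upstream in pool J (chr3:51408821-51409355 in pool I). In the ranked list of both pools the same peak stood at percentile 99.9 with a scaled IDR score of 316, which is an IDR of 0.173, and in the ranked list of the pooled reads it had a score of 356, an IDR of 0.139. Both scores were below the 540 that the thresholded lists require. The best CTCF window under its pool I summit scored 12.2, just below the motif threshold of 12.3. The other 6 complex I genes with a summit in pool I alone (Ndufb9, Ndufs8, Ndufb3, Ndufb5, Ndufa4 and Ndufs1) were weak, between percentile 0.172 and 19.9.

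None of the 4 genes of complex II had a conservative promoter summit. Sdha, the flavoprotein, had one in the optimal list at percentile 10.3, in pool I at 41.8 and in pool J at 21.6. Its score in the ranked list of both pools was 474, also below 540. Sdhd, a membrane anchor, had one in pool I at percentile 37.0 and in pool J at 3.56, in each case also within 1000 bp of Timm8b. Sdhb, the iron-sulfur subunit, and Sdhc, the other anchor, had none in the 4 lists.

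Complex III had summits at the promoters of both core proteins. Uqcrc1 stood at percentile 96.1 in the conservative list, 96.6 in the optimal list, 97.9 in pool I and 94.5 in pool J, with a summit 16 bp upstream (chr9:108936359-108936803). Uqcrc2 stood at 66.1, 70.3, 81.7 and 69.6 in the same order, 33 bp upstream (chr7:120634959-120635306). Uqcrh, the hinge protein, had 2 summits on either side of its start, 820 bp upstream at percentile 39.3 and 720 bp downstream at 17.7, both also within 1000 bp of Lrrc41. Uqcrb, which helps to hold ubiquinone, had a weak one at 2.95, 286 bp upstream, with 44.3 in pool I and 16.6 in pool J. None of these 5 peaks matched the CTCF matrix. Of the other complex III genes, Uqcr11 had a promoter summit in the optimal list at percentile 4.63 and in pool I at 36.2, Uqcr10 in pool I at 16.8 and in pool J at 4.58, and Uqcrq in pool I at 2.29. Uqcrfs1, the Rieske iron-sulfur protein, had none.

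In complex IV the only gene with a conservative promoter summit was Cox6a1, the broadly expressed form of subunit VIa. It stood at percentile 12.7 in the conservative list, 22.8 in the optimal list, 50.4 in pool I and 25.1 in pool J, 184 bp upstream, without a motif match. A further 4 complex IV genes had one in a single pool: Cox7a2l at percentile 41.5, Cox4i1 at 24.7 and Cox8a at 1.05 in pool I, and Cox5a at 5.27 in pool J. No complex IV promoter peak stood above percentile 50.4 in the 4 lists. The isoforms known for restricted tissues (Cox4i2, Cox6a2, Cox6b2, Cox7a1, Cox7b2, Cox8b and Cox8c) had no promoter summit in the 4 lists. None of them had a CpG-rich promoter, with observed over expected CpG between 0.245 and 0.468, against a median of 0.71 over the 82 genes. Of all genes without a CpG-rich promoter, 78.2% had none in the 4 lists. The other complex IV genes with none in the 4 lists were Cox5b, Cox6b1, Cox6c, Cox7a2 and Cox7c, of which all but Cox6b1 were CpG-rich. Together these were 12 of 17 complex IV genes (70.6%), against 60.7% of all genes with none in the 4 lists. Over all genes with CpG-rich promoters that share was 41.3%.

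Complex V held the strongest promoter peak of these genes in the conservative list, at Atp5mpl, a small proteolipid of the membrane sector. It ranked 169 of 44672 in the conservative list, at percentile 99.6, with 99.3 in pool I and 99.3 in pool J, 111 bp upstream (chr12:111966898-111967304). It was absent from the optimal list: in the ranked list of the pooled reads it stood at percentile 99.8 with a score of 243, an IDR of 0.26. Like Ndufc1, which ranked above it in both pools, it was thus strong in each pool and missing from a combined list.
Atp5g2, one of the genes for the c-ring subunit, stood at percentile 97.2 in the conservative list, 97.6 in the optimal list, 94.2 in pool I and 99.1 in pool J, 75 bp upstream (chr15:102670993-102671412), also within 1000 bp of Mir688. Its score of 615 was the lowest of the 24 peaks, all others having the maximum of 1000. Of the other c-ring genes, Atp5g1 had a promoter summit in the optimal list at 10.1 and in pool I at 45.3, and Atp5g3 had none in the 4 lists.

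Atp5k, the subunit e that takes part in dimers of the enzyme, stood at percentile 87.6 in the conservative list, with 92.5 in pool I and 89.8 in pool J, 27 bp upstream (chr5:108434298-108434670). The 3 subunits of the central stalk, which turns inside the enzyme, all had a promoter summit. Atp5c1 (gamma) stood at 65.8, 91 bp upstream and within 1000 bp of Kin. Atp5d (delta) had 2 summits, 99 bp downstream at 57.1 and 969 bp downstream at 11.7, and only the weaker one matched the matrix. Atp5e (epsilon) stood at 4.63, 149 bp upstream, with 44.7 in pool I and no promoter summit in pool J.
Atp5f1 (subunit b of the outer stalk) stood at 27.9, 796 bp upstream. Atp5o, which links that stalk to the catalytic head, had a promoter summit in the optimal list at percentile 18.6, in pool I at 40.0 and in pool J at 35.9, with the motif in each, but none in the conservative list. The catalytic subunits Atp5a1 and Atp5b had none in the 4 lists.

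**Figure D2:**
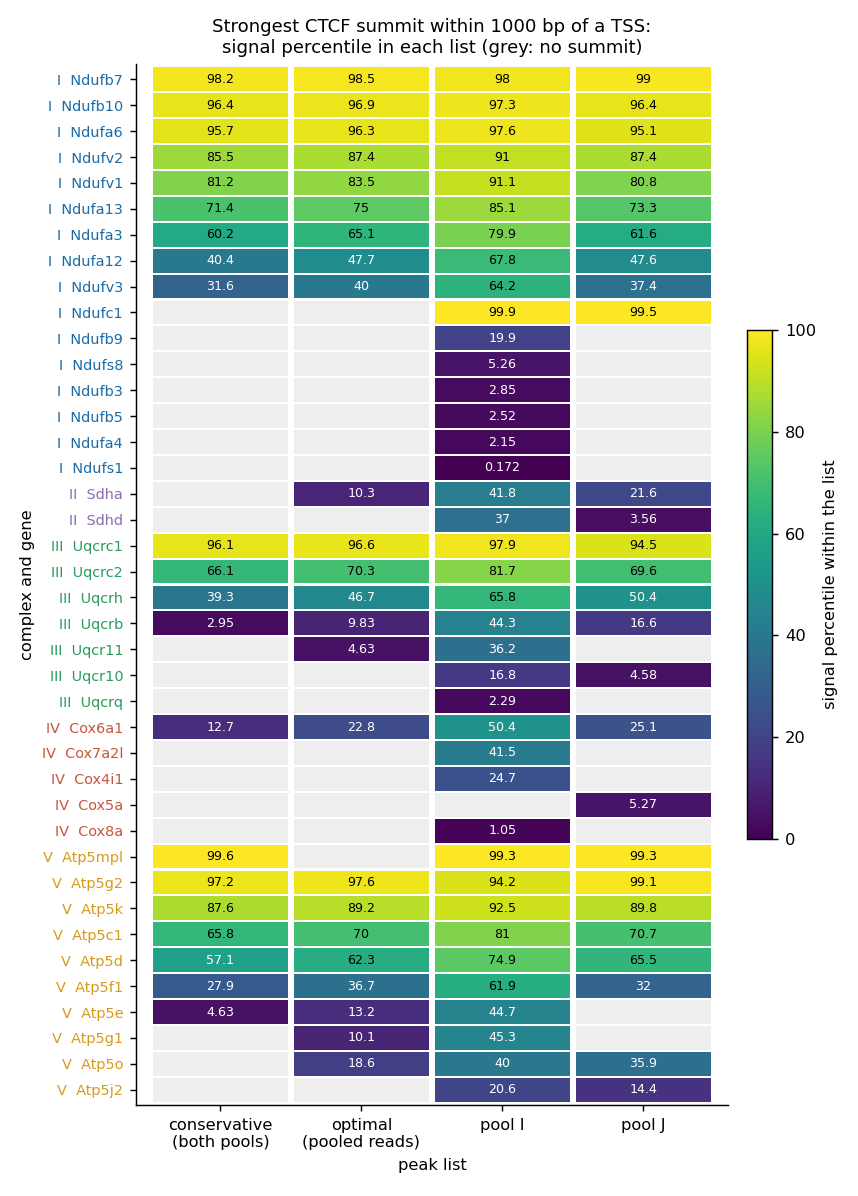
Signal percentile of the strongest CTCF summit within 1000 bp of a TSS (colour and number) for gene records with one in at least 1 of 4 lists (columns), grouped by complex. Grey means no summit in that list; Ndufc1 is at 99.9 in pool I and 99.5 in pool J and grey in both combined lists, and Atp5mpl is grey in the optimal list alone.

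Over the 22 genes, the strongest promoter summit had a median percentile of 68.8 (range 2.95 to 99.6), against 47.6 over the 4461 genes with one. Of the 24 distinct peaks, 7 (29.2%) were in the top 10% of the list, against 11.2% of the 4634 promoter peaks of all genes. The bottom 10% held 8.33% of them, against 11.5%, and 7.41% in the optimal list, against 11.6%. In pool I, 22.9% of the 48 peaks were in the top 10%, against 8.69%, and 20.8% in the bottom 10%, against 14.3%. In pool J, 24.2% of the 33 peaks were in the top 10%, against 11.6%, and 18.2% in the bottom 10%, against 13.4%. Over the 48 peaks of pool I the median was 45.0, against 45.2. The median of the strongest summits depended on the list. It was 65.1 in the optimal list, against 48.1 of all genes, 56.2 in pool I, against 52.0, and 67.6 in pool J, against 48.2. The genes just inside the window of 1000 bp were Ndufa13 at 980 bp and, with its second summit, Atp5d at 969 bp. Those just outside it were Atp5l at 1018 bp and Ndufs7 at 1033 bp.

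The strongest summit lay upstream of the nearest TSS in 17 of 22 genes (77.3%), against 63.8% of all genes with a promoter summit. Its median distance was 120 bp, against 219 bp. In 12 genes (54.5%) it lay in the 250 bp before the TSS, against 38.0%. In 5 genes (22.7%) the summit was also within 1000 bp of a TSS of another protein-coding gene, against 14.2%.

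**Figure D3:**
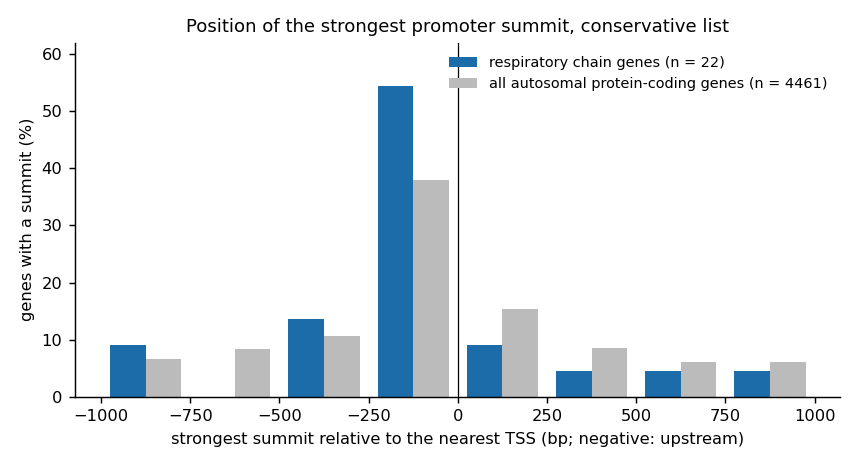
Position of the strongest conservative promoter summit relative to the nearest TSS (x axis, bins of 250 bp, negative upstream) as a percentage of the genes with one (y axis), in 22 respiratory chain genes (blue) and all 4461 genes with a promoter summit (grey). The bin just upstream of the TSS holds 54.5% of the respiratory chain genes and 38.0% of all.

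A CTCF match lay within 50 bp of 9 of the 24 promoter peaks (37.5%, interval 18.8 to 59.4%), against 36.0% of all promoter peaks. At a threshold passed by 0.1% of flanking windows, 0 of 24 matched, against 4.98%. The matches were more frequent away from promoters: 79 of 105 conservative summits within 10 kb of a respiratory chain gene and at no protein-coding promoter matched (75.2%, interval 65.9 to 83.1%), against 71.4% of such summits of all genes.

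Within 10 kb of the gene, 62 of the 82 had a conservative summit (75.6%, interval 64.9 to 84.4%), against 71.8% of all genes. In the optimal list there were 66, against 74.3% of all genes, in pool I 78, against 81.2%, and in pool J 66, against 74.8%. The respiratory chain genes were short, with a median length of 7560 bp against 17600 bp, so the stretch searched around each was smaller. Among genes shorter than 6677 bp, 25 of 34 (73.5%) had a summit, against 51.5% of all genes below that length. Among genes with CpG-rich promoters the order was the other way, 46 of 60 (76.7%, interval 64.0 to 86.6%) against 86.4% of all genes with such promoters. Inside the gene itself, with no extension, 25 of 82 had one, against 47.0% of all genes. The counts by complex were 26 of 35, 4 of 4, 7 of 8, 11 of 17 and 14 of 18 from complex I to V.

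In the conservative list, some of the strongest summits of the group belonged to genes without one at the promoter. Sdhb had one at percentile 99.7, rank 113 of 44672, lying 3154 bp upstream (chr4:140957826-140958271) and within 1000 bp of a TSS of Gm13031. The strongest summit within 10 kb of Sdhb stood at 99.4 in pool I and 99.5 in pool J, but at only 87.8 in the optimal list. Ndufb8, an accessory subunit of complex I, had one at 99.1, lying 7285 bp upstream at the promoter of Hif1an (chr19:44562502-44562914). Uqcrfs1 had one at 97.7, lying 3710 bp upstream (chr13:30548836-30549279), and Cox8b, the muscle form of its subunit, one at 97.2, lying 2990 bp upstream (chr7:140903208-140903721). All 4 matched the matrix. They are shown in the same way as the promoter matches, as examples of strong peaks away from the genes' own promoters, at chr4:140958030-140958059 (minus strand), chr19:44562720-44562749 (plus), chr13:30549055-30549084 (minus) and chr7:140903417-140903446 (minus).
Sdhb: cgagtCTACCTCCAGGGGGCACTCCcggct
Ndufb8: gcaggTCACCGCTAGGGAGCGCTCCttcaa
Uqcrfs1: tccgaTTTCCACCAGAGGGAGCTAGataat
Cox8b: aaatcTGGCCACAGGGTGGTGCCCTgtgtc

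The Uqcrfs1 match had the highest score of those printed, 19.2. Among genes with no conservative promoter summit, the next strongest in complex I were near Ndufs7, an iron-sulfur subunit (93.0), and Ndufs1, the largest core subunit (91.3). Among such genes of complex IV they were near Cox5b (94.7) and Cox6a2 (94.7), and in complex V near Atp5o (93.1), Atp5a1 (88.2) and Atp5s (86.5). The Atp5o summit was counted for both of its records. In total 40 genes had a summit within 10 kb but not at the promoter, and in 6 of them the strongest one lay at the promoter of another gene (Sdha, Sdhb, Ndufb8, Ndufc1, Cox6b1 and Atp5b). Of all genes, 71.8% had a summit within 10 kb and 21.4% one at the promoter. Neither the 40 nor the 6 was counted in the same way over all genes.

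In the conservative list, 20 genes had no summit within 10 kb. In complex I they were Ndufa4, Ndufa8, Ndufa9, Ndufa11, Ndufb4, Ndufs3, Ndufs4, Ndufs5 and Ndufs8, in complex III Uqcrq, in complex IV Cox6b2, Cox6c, Cox7a2, Cox7a2l, Cox7c and Cox8c, and in complex V Atp5g1, Atp5g3, Atp5j and Atp5j2. Of these, Cox6b2, Cox7c and Cox8c had none in the 4 lists. Ndufa4 was farthest from any, with the nearest conservative summit 113759 bp from a TSS, followed by Ndufs4 at 68069 bp and Cox7c at 57517 bp. Counted from the TSS, 73 of 82 genes (89.0%) had a conservative summit within 20000 bp, against 69.6% of all genes. Of the 60 with CpG-rich promoters 54 had one within that distance, against 81.0% of all genes with such promoters. Within 10000 bp of the TSS, 66.7% of the respiratory chain genes with CpG-rich promoters had one, against 65.4% of all genes with such promoters. The median distance was 4490 bp over the 82 genes, against 8320 bp.

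**Figure D4:**
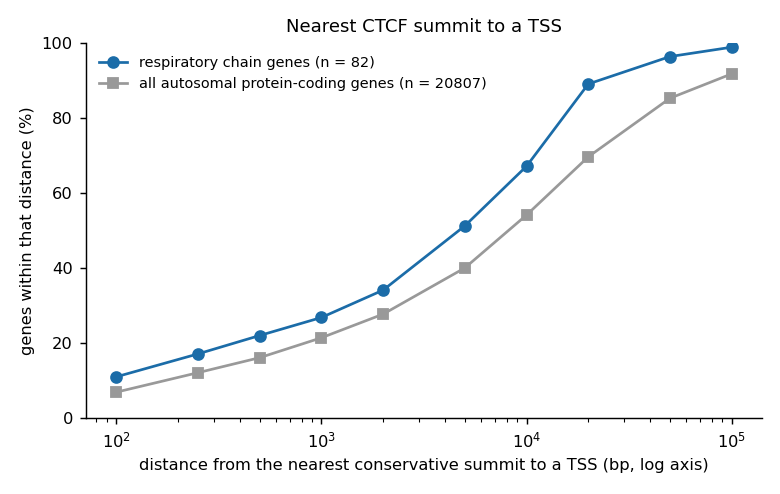
Cumulative percentage of genes (y axis) with a conservative CTCF summit within a given distance of a TSS (x axis, log scale), for 82 respiratory chain genes (blue circles) and all 20807 autosomal protein-coding genes (grey squares). The curves are 26.8% and 21.4% at 1000 bp and 89.0% and 69.6% at 20000 bp.

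Of the 82 genes, 20 had a promoter summit in all 4 lists (24.4%, against 20.4% of all genes) and 41 in none (against 60.7%). The ranked list of both pools, without the IDR threshold, held one for 17 of the 41 (41.5%, against 21.5% of all genes with none). Among genes with CpG-rich promoters the same shares were 12 of 27 (44.4%) and 45.3%. Of the 82, 10 had none in any of the 4 thresholded and 4 ranked lists (12.2%, against 35.9% of all genes), and of the 60 with CpG-rich promoters 4 (6.67%, against 7.87%). The 10 were Ndufa7, Ndufa9, Cox4i2, Cox6c, Cox7a1, Cox7b2, Cox7c, Cox8b, Cox8c and the long Atp5o record. Of the pool I peaks at promoters of these genes, 30 of 48 (62.5%, interval 47.4 to 76.0%) overlapped a pool J peak, against 61.0% of all promoter peaks of pool I. In the other direction, 31 of 33 pool J peaks (93.9%) overlapped a pool I peak, against 95.5%.

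The signal value was higher in pool I than in pool J at each of the 24 peaks, and the log2 of pool I over pool J had a median of 0.98 (SD 0.41 over 24 peaks), against 1.09 over all conservative peaks. The unit is not stated, so this ratio describes the lists, not binding. Atp5mpl had a signal value of 384 in pool I and 284 in pool J, and Ndufb7 had 366 in pool I and 275 in pool J. At the low end, Uqcrb had 61.0 in pool I and 23.2 in pool J. The log2 ratio was lowest at Atp5g2, 0.29, and highest at Atp5f1, 1.71.

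**Figure D5:**
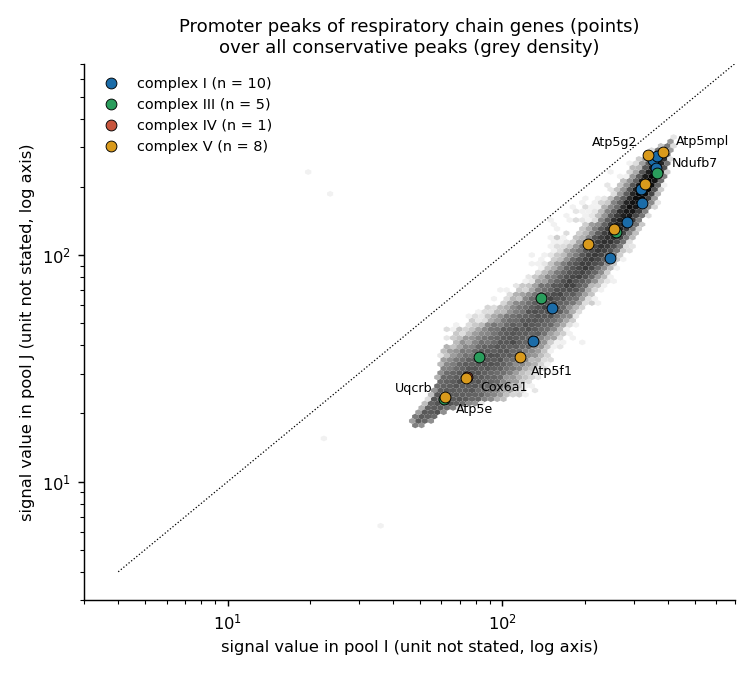
Signal value in pool I (x axis) and pool J (y axis), log axes, unit not stated, for the 24 promoter peaks of respiratory chain genes coloured by complex, over the density of all 44672 conservative peaks in grey. The dotted line marks equal values; all 24 points lie below it, from Uqcrb and Atp5e at the lower left to Atp5mpl at the upper right.

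The promoter letters of these genes were read in RefSeq promoters on GRCm38.p6, 300 bases each (250 before and 50 after the start), of which 68 from 63 symbols matched. The letters CGCATGCG, the core of NRF1 sites, were in 9 of them (13.2%), against 2.63% of all 19174 promoters. The ETS core CCGGAAG was in 16 (23.5%), against 12.1%, and AAGATGGCG, the core of YY1 sites, in 7 (10.3%), against 1.91%. Each of these cores holds the letters CG, and the background of all promoters was not matched for CpG-rich promoters. Both strands were searched, and a promoter could hold more than 1 motif. Among the 19 promoters of genes with a conservative CTCF promoter summit, the NRF1 core was in 4, the ETS core in 5 and the YY1 core in 0. Among the 49 without, they were in 5, 11 and 7. Over all genes, the NRF1 core was in 3.26% of promoters with a summit and 2.44% of those without, the ETS core in 14.8% with and 11.3% without, and the YY1 core in 2.09% with and 1.85% without. The 7 promoters with the YY1 core were those of Ndufc1, Ndufa9, Ndufs4, Ndufs6, Ndufs7, Atp5j and Atp5j2. The split is by the conservative list alone. Ndufc1 had a promoter summit at percentile 99.9 in pool I and 99.5 in pool J, and Atp5j2 at 20.6 and 14.4. The CTCF matrix matched 5 promoters (7.35%), against 3.77%, and those were Ndufa6, Ndufb10, Ndufv1, Atp5k and Sdhd. These are matches of letters, not sites shown to be bound.

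Many respiratory chain genes start beside another gene. In 18 of 82, a protein-coding gene on the opposite strand starts within 1000 bp upstream, against 8.37% of all genes. Of these 18, 3 (16.7%) had a conservative CTCF promoter summit, against 26.5% of all genes in this arrangement. Of the other 64, 19 had one (29.7%), against 21.0%.

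Of the related lists, the assembly factors had their strongest promoter peaks at Ndufaf4 (percentile 99.8), Ndufaf3 (97.1), Sco2 (92.7), Cox19 (89.9) and Cox14 (86.7). Among 15 regulators of mitochondrial biogenesis 6 had a summit (interval 16.3 to 67.7%, which includes the 21.4% of all genes), the strongest at Gabpb2 (86.0), a subunit of GABP, and at Pprc1 (57.3), a coactivator. Of 4 autosomal genes of the chain outside the symbol rule, 3 had one (interval 19.4 to 99.4%): Ndufab1 (84.8), Cycs (23.1), which encodes cytochrome c, and Cyc1 (7.15). Mitochondrial ribosomal proteins had one at 19 of 78 genes (24.4%, interval 15.3 to 35.4%) and proteasome subunits at 16 of 48 (33.3%, 20.4 to 48.4%), both intervals including the share of all genes. Cytoplasmic ribosomal proteins had one at 30 of 80 (37.5%, 26.9 to 49.0%), an interval above the share of all genes, as for the assembly factors. Both of these intervals include the 31.1% of all genes with CpG-rich promoters.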

How the data were processed

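CTCF ChIP-seq peaks of 4 libraries (2 pools with 2 technical replicates each, grouped by the pool in the labels) were analysed. The authors deposited 4 thresholded and 4 ranked IDR lists on mm10. In each, the deposited score is a scaled IDR (540 and above in the thresholded lists) and the deposited signal value of each peak is in the caller's own, unstated unit, so scores and signal values are the authors' own. Read depth is unknown; aligner and caller: not given in the sources used here. The first input of the ranked list of both pools matched pool I intervals (84.8% identical) and the second pool J (62.5%).

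Summits were taken 1-based and set against TSSs of GENCODE M21 basic transcripts and against GRCm38.p6. CpG-rich meant observed over expected CpG of at least 0.6 and at least 50% GC within 500 bp of the first TSS. A CTCF matrix was trained with the odd autosomes' top 1000 conservative peaks (pseudocount 5); 4 of the 24 peaks were among them. Its training, the use of the ranked list of pooled reads, the 1% threshold for promoter letters and the examples away from promoters were chosen after the data were seen. Scripts were tested on simulated data. Binomial intervals are exact (Clopper-Pearson, 95%). No test was made between groups, as 1 list per pool leaves no replicates. The genes and lists were chosen with earlier results of these data known. Of the 22 genes with a conservative promoter summit, 1 is counted but not reported by name here. Named were the others with such a summit, all of complexes II and III, in the other complexes the 3 with the strongest summit within 10 kb but none at the promoter and those with none within 10 kb, tissue isoforms, and up to 5 of each mitochondrial list. Further names (Ndufc1, Ndufa4l2, pool-only genes) were added after their values were seen. Software was pysam 0.24.0 for sequence, SciPy 1.17.1 for intervals, pandas 2.3.3 for tables and matplotlib 3.10.9 for plots, under Python 3.11.15.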

Additional observations from a re-analysis of the deposited data

How the results depend on the processing

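The number of genes with a promoter summit stayed within 1.5 times of 22 under the other windows, lists, thresholds and TSS sets tried, except that it was 42 with a window of 5000 bp (40.0% of all genes) and 40 in the pool I list (38.6%). The count within 10 kb was 25 instead of 62 in the gene body alone, and stayed within 1.5 times under the others. No promoter peak (0.0%) passed the 0.1% motif threshold, against 37.5% at the 1% threshold. The median percentile of 68.8 was 56.2 in pool I and 83.4 with a window of 500 bp. Sharing of pool I peaks was 77.1% with the ranked pool J list, and 28.0% of the genes (26.9% of all) met a stricter CpG class. Of the 22 genes, 21 kept a promoter summit in the optimal list (not Atp5mpl), 22 in pool I, 21 in pool J (not Atp5e), 21 at an IDR of 0.01 (not Atp5g2) and 19 from the 5′ end of the gene record alone (Atp5d and Atp5g2 were among those lost). Chosen after seeing the data, leaving out the long Atp5o record gave 22 and 61, and the matrix trained first, from the 500 better-scoring training peaks and replaced after its results were seen, gave 37.5%, against 32.3% of all promoter peaks. The cause of these differences was not tested. No library could be left out, since libraries were merged per pool. No paired analysis was possible because each pool gave 1 list and no test between pools was made.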
